A study of Homo sapiens with 2 samples.

Results

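The spliceosomal RNAs, 7SK RNA, 7SL RNA, the RNA subunits of RNase P and RNase MRP, and the Y RNAs are short, abundant and stable RNAs that work inside ribonucleoprotein particles. Their rows were chosen by gene symbol alone, as every row whose symbol begins with RNU and a digit, with RN7S, with RNY and a digit or with VTRNA, whose whole symbol is U and a number, 7SK or Y_RNA, or which is RMRP or RPPH1. This gave 144 of the 18781 rows, and no vault RNA was among them. The rows fell into 13 families by symbol, with 55 rows of 7SK, 49 of 7SL, 16 of U1, 11 of U2, 3 of U4, 2 of U6, 2 of Y RNA and 1 each of U3, U5, U11, U12, RMRP and RPPH1.

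The study asked which RNAs bind IMP1, an RNA-binding protein of the cytoplasm, in T47D, a human breast cancer cell line of luminal type with the genotype given as WT. Lysate of cultured T47D cells was put on protein A beads that carried either an anti-IMP1 antibody or normal IgG as control, the beads were washed, and the RNA that stayed on them was extracted and sequenced (RIP-seq). There was 1 library for each precipitate, called here the IMP1 library and the IgG library, with no replicates, so no difference between the precipitates has a replicate error or a test. Values are FPKM, fragments of a transcript divided by its length and by the number of fragments in the library, and a log2 ratio is log2 of (FPKM + 0.1) with anti-IMP1 divided by (FPKM + 0.1) with IgG, which makes ratios of low values smaller than they are. A value given as 0 means that the row is listed at 0 in the deposited table.

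The spliceosome removes introns from pre-mRNA. In its major form the U1 RNA pairs with the 5′ splice site, U2 pairs with the branch point, and U4, U5 and U6 join as a tri-snRNP, while U11 and U12 do the work of U1 and U2 on a rare class of introns. The 7SK RNA holds the elongation kinase P-TEFb in an inactive particle in the nucleus, and 7SL is the scaffold of the signal recognition particle, which brings ribosomes to the endoplasmic reticulum. RPPH1 is the RNA of RNase P, which trims the 5′ ends of tRNA precursors, RMRP is the RNA of the related RNase MRP, which cuts ribosomal RNA precursors, and Y RNAs bind the Ro protein. The genome carries many degenerate copies of these genes, and of the 144 rows 114 had the class pseudogene in RefSeq, 18 had the class of a small RNA gene (12 of them snRNA) and 12 had no entry.

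These RNAs took up a smaller part of the IMP1 library than of the IgG library. Their FPKM summed to 48591 with anti-IMP1 and to 314559 with IgG, which was 13.7% and 24.2% of the sum of all rows. Of the 10 highest rows of the whole table, 4 belonged to these RNAs with anti-IMP1 and 6 with IgG. At 2-fold, 33 of the 144 rows were higher with anti-IMP1 and 102 were lower. Of the 102 lower rows, 54 were listed at 0 with anti-IMP1. Their lowest IgG value was 1.18 FPKM, so the value of 0 alone made each of the 54 a lower row. Among the 56 rows above 0 in both libraries, 0 were higher and 48 lower. Among all 18781 rows, 39.9% were higher and 29.9% lower, against 22.9% and 70.8% of the 144 rows. The median log2 ratio of the 144 rows was -3.11, with quartiles at -5.46 and -0.39, and that of all rows was 0.40.

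The higher rows were those that the IgG library listed at 0. Where both libraries had at least 1 FPKM, which 37 rows met, 0 were 2-fold or more higher and 30 were 2-fold or more lower, with a median log2 ratio of -2.31. Over all 6909 genes that met this minimum, 11.5% were higher and 44.0% lower, with a median of -0.78. The 2 libraries are not on the same scale, since all FPKM together came to 353885 with anti-IMP1 and 1298360 with IgG, 3.67-fold apart. Without the mitochondrially encoded genes the sums differed 2.85-fold, and without those genes and the 144 rows they differed 1.54-fold. For an equal share of the whole sum the log2 shift between the libraries is 1.88, so a ratio of FPKM alone does not say whether an RNA was scarcer in the IMP1 precipitate. Less of an RNA on the beads and more of all other RNA cannot be told apart in these values, and ratios between families within a library, which need no scale, are given below.

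**Figure D1:**
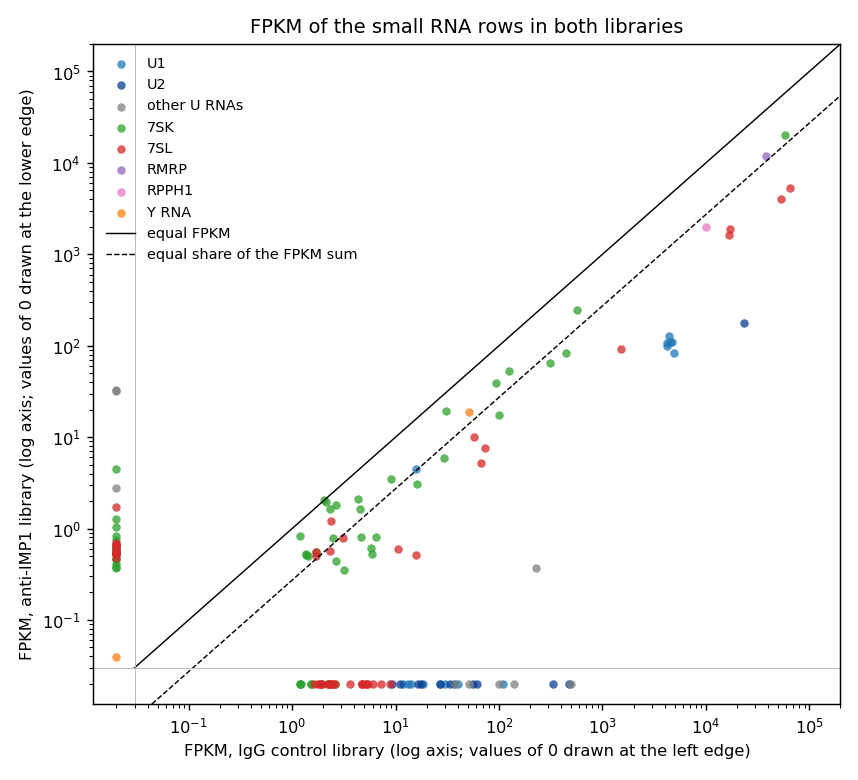
FPKM of each of the 144 rows in the IgG library (horizontal axis, log scale) and the IMP1 library (vertical axis, log scale), 1 point per row coloured by family, with values of 0 drawn at the edges; the solid line marks equal FPKM and the dashed line an equal share of the FPKM sum. RN7SK, RMRP and RNY1 lie above the dashed line, RN7SK at 57684 and 20339 FPKM, while the 6 highest U1 points and the U2 point at 23616 and 177 FPKM lie far under it.

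The U1 rows were all at least 2-fold lower in the IMP1 library. Together the 16 rows summed to 644 FPKM with anti-IMP1 and to 27238 FPKM with IgG, that is, a log2 ratio of the sums of -5.40 and a difference of 42.3-fold. The share of the FPKM sum was 0.182% and 2.10%. Of the 16, 7 were above 0 in both libraries and 9 were above 0 with IgG only.

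Near-identical copies, 6 in number, held nearly all of the FPKM of the 16 U1 rows. The gene RNU1-1 (chr1:16840617-16840780 in hg19, in a locus of its own) had 127 FPKM with anti-IMP1 and 4409 FPKM with IgG, that is, a log2 ratio of -5.12. RNU1-2 had 83.4 and 4912 FPKM, with a log2 ratio of -5.88, the lowest of the U1 rows above 0 in both libraries. RNU1-3 had 111 and 4460 FPKM (-5.33) and RNU1-4 had 111 and 4723 FPKM (-5.41). RNU1-1 to RNU1-4 are genes of the U1 RNA that lie near each other on chromosome 1. RNU1-27P and RNU1-28P, copies with a pseudogene symbol on chromosome 14, stood at the same level, with 107 and 4171 FPKM (-5.28) for the first and 99.2 and 4246 FPKM (-5.42) for the second. The highest of the 6 copies was 1.52-fold the lowest in the IMP1 library and 1.18-fold in the IgG library. Since reads of such copies cannot be told apart, the 6 values are not 6 measurements of separate genes. The U1 variant rows RNVU1-7, RNVU1-9 and RNVU1-18, whose symbols lie outside the rule, stood at similar levels. With anti-IMP1 and with IgG they had 91.3 and 4359, 103 and 4522, and 95.3 and 4510 FPKM. None of them is part of the U1 sums, shares and ratios given here.

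The low U1 copies were nearly all listed at 0 in the IMP1 library. RNU1-120P was the only one of them above 0 in both, with 4.51 FPKM with anti-IMP1 and 15.9 FPKM with IgG (log2 ratio -1.79). The row named U1 was listed at 0 in the IMP1 library and had 13.1 FPKM in the IgG library. The other 8 IgG-only copies had between 11.8 and 110 FPKM in the IgG library. Over the 21 rows with a locus of 152 to 167 bases, the length of U1, the lowest value above 0 was 3.80 FPKM with anti-IMP1 and 12.8 FPKM with IgG, and a copy 42.3-fold lower than its IgG value would lie under the first of these.

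The U1 rows also bear on how many fragments lay behind their values. In each library the 6 high copies of 164 bases were whole multiples, within 0.01, of a single amount. It was 3.97 FPKM with anti-IMP1 and 12.6 FPKM with IgG. The largest deviation from a whole number was 0.000108 and 0.000563. The 3 RNVU1 rows, not used to find the amount, were also whole multiples, with a largest deviation of 0.000537. RNU1-67P, of 164 bases in RefSeq, and RNU1-136P, with a locus of 164 bases, were listed at 0 with anti-IMP1 and were not used. Their IgG values, 27.0 and 36.4 FPKM, were not whole multiples of this amount. If this amount is the worth of 1 fragment, RNU1-1 rests on 32 fragments in the IMP1 library (95% exact Poisson interval 21.9 to 45.2) and on 351 in the IgG library (315 to 390). Over the 6 copies these numbers ran from 21 to 32 and from 332 to 391. The intervals cover counting error only and say nothing of the spread between precipitates. The amount itself was 3.16-fold larger in FPKM in the IgG library. Whether this bears on the 3.67-fold difference of the FPKM sums was not tested.

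U2 differed more than U1. The 11 rows summed to 177 FPKM with anti-IMP1 and to 24653 FPKM with IgG, that is, a log2 ratio of the sums of -7.12 and a difference of 140-fold. The IMP1 sum was that of RNU2-2P alone, the row that RefSeq now lists as the snRNA gene RNU2-2. It had 177 FPKM with anti-IMP1 and 23616 FPKM with IgG, that is, a log2 ratio of -7.06, and ranked 147 among all rows in the first and 7 in the second. This was the smallest ratio among the rows with at least 1 FPKM in both libraries. RNU2-2P shares its locus, on chromosome 11, with the WD repeat gene WDR74, which had 7.89 FPKM with anti-IMP1 and 4.21 FPKM with IgG. The other 10 rows of U2 were listed at 0 in the IMP1 library and lay at or under 473 FPKM in the IgG library, the value of RNU2-59P.

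The rows of the tri-snRNP RNAs, 3 of U4, 1 of U5 and 2 of U6, were above 0 in 1 library only. No other U5 or U6 gene had a row, so these rows do not stand for all U5 and U6 RNA. RNU4-2, the main gene of the U4 RNA (chr12:120729566-120729706), was listed at 0 in the IMP1 library and had 492 FPKM in the IgG library. RNU4-1 beside it (chr12:120730900-120731040) was at 0 and 100.1 FPKM, and the row named U4 at 0 and 37.7 FPKM. For U5, RNU5E-1 was listed at 0 in the IMP1 library and had 50.8 FPKM in the IgG library. The U6 rows went the other way. RNU6-8 had 32.6 FPKM in the IMP1 library and RNU6-98P 31.8 FPKM, and both were listed at 0 in the IgG library. Among the 7 rows with a locus of 98 to 128 bases the lowest value above 0 was 18.2 FPKM with anti-IMP1 and 30.0 FPKM with IgG, so the level of the U6 rows lay close to the lowest one that the IgG library held at this length.

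The minor spliceosome RNAs U11 and U12 were nearly confined to the IgG library. RNU11 (chr1:28975112-28975245) was listed at 0 in the IMP1 library and had 139 FPKM in the IgG library. RNU12 (chr22:43011250-43011913) had 0.372 FPKM with anti-IMP1 and 227 FPKM with IgG, that is, a log2 ratio of -8.91. The row named U3, a box C/D RNA of ribosomal RNA processing rather than of splicing, had 2.79 FPKM in the IMP1 library and was listed at 0 in the IgG library.

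The 7SK family held about the same share of both libraries. Its 55 rows summed to 20910 FPKM with anti-IMP1 and to 59479 FPKM with IgG, that is, a log2 ratio of -1.51. As a share of the FPKM sum this was 5.91% and 4.58%, and without mitochondrially encoded genes in the sum 11.5% and 11.4%. The direction therefore depends on the scale: on an equal sum over all genes the log2 ratio was 0.37, and on an equal sum without mitochondrially encoded genes 0.0052. The gene RN7SK (chr6:52860418-52860748, in a locus of its own) had 20339 FPKM with anti-IMP1 and 57684 FPKM with IgG, that is, a log2 ratio of -1.50. It was 97.3% of the family sum in the first library and 97.0% in the second, and ranked 3 and 4 among all rows.

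The copies of 7SK lay on both sides of RN7SK. In the family, 17 rows had at least 1 FPKM in each library, and their log2 ratio ran from -2.52 to 0.01, with a median of -1.25. RN7SKP203, the highest copy, had 247 FPKM with anti-IMP1 and 567 FPKM with IgG (-1.20). RN7SKP71 had 84.2 and 445 FPKM (-2.40), and RN7SKP80 had 65.0 and 311 FPKM (-2.26). RN7SKP71 shares its locus with HECTD4, which had 0.550 and 0.705 FPKM, so the copy stood far above the gene around it.

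The 5 rows of all families with the largest ratios at this minimum were 7SK copies. RN7SKP237 had 2.04 FPKM with anti-IMP1 and 2.02 FPKM with IgG, that is, a log2 ratio of 0.01. RN7SKP297 had 1.94 and 2.13 FPKM (-0.13), RN7SKP217 had 1.62 and 2.34 FPKM (-0.50), RN7SKP163 had 1.79 and 2.68 FPKM (-0.56) and RN7SKP230 had 19.2 and 30.6 FPKM (-0.67). All but the last lay near 1.18 FPKM with IgG, the lowest value above 0 that any of these RNAs had there. The 3 rows named 7SK had 39.0 and 92.7 FPKM (-1.25), 3.07 and 16.2 FPKM (-2.36), and 0.598 and 0 FPKM. Of the 55 rows, 29 were above 0 in both libraries, 18 with IMP1 only and 8 with IgG only. The 18 were among 47 rows above 0 with IMP1, and over all genes 41.4% of such rows were listed at 0 with IgG. The 8 were 21.6% of the rows above 0 with IgG, beside 10.4% over all genes.

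The 7SL family was the largest in the IgG library. Its 49 rows summed to 12975 FPKM with anti-IMP1 and to 154082 FPKM with IgG, that is, a log2 ratio of the sums of -3.57 and a difference of 11.9-fold. The share of the FPKM sum was 3.67% and 11.9%. RN7SL1, on chromosome 14, had 5290 FPKM with anti-IMP1 and 65655 FPKM with IgG (log2 ratio -3.63). RN7SL2 (chr14:50329271-50329567) had 4049 and 52837 FPKM (-3.71). Both have the class of a small RNA gene in RefSeq, and they differed by about the same amount, 12.4-fold and 13.1-fold. RN7SL3 (chr14:50320336-50320632), close to RN7SL2 and of the same class, was far lower in FPKM, with 92.1 and 1526. It had the lowest log2 ratio of the family among rows with at least 1 FPKM in both libraries, -4.05.

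Among the pseudogene symbols of 7SL, 2 rows came nearest in FPKM to RN7SL1 and RN7SL2. RN7SL5P had 1898 FPKM with anti-IMP1 and 16970 FPKM with IgG (-3.16), and RN7SL4P had 1610 and 16777 FPKM (-3.38). RN7SL5P lies in the locus of PTPRD, which had 0.0155 and 0 FPKM, and RN7SL4P in that of ANKRD28, with 2.71 and 17.1 FPKM. Both copies were thus far above the gene around them, and reads they share with RN7SL1 and RN7SL2 cannot be told apart. The 9 rows with at least 1 FPKM in both libraries ran from -4.05 to -0.90 with a median of -3.38. Of the 49 rows, 15 were above 0 in both libraries, 12 with IMP1 only and 22 with IgG only. The 12 were among 27 rows above 0 with IMP1, and over all genes 41.4% of such rows were listed at 0 with IgG. The 22 were 59.5% of the rows above 0 with IgG, beside 10.4% over all genes.

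RMRP and RPPH1 lay closer to 7SK than to 7SL. RMRP (chr9:35657748-35658015, in a locus of its own) had 11800 FPKM with anti-IMP1 and 38056 FPKM with IgG, that is, a log2 ratio of -1.69. Its share of the FPKM sum was 3.33% and 2.93%, and on an equal sum over all genes its log2 ratio was 0.19. RPPH1, on chromosome 14, had 2000.2 FPKM with anti-IMP1 and 9951 FPKM with IgG (-2.31), or 0.565% and 0.766% of the sum. It shares its locus with PARP2, a DNA repair enzyme, which had 2.22 and 0 FPKM. The ratio of RMRP to RPPH1, the RNAs of 2 enzymes that share most of their proteins, was 5.90 with anti-IMP1 and 3.82 with IgG.

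The Y RNAs were scarce in both libraries. RNY1 (chr7:148684228-148684340) had 18.7 FPKM with anti-IMP1 and 51.7 FPKM with IgG, that is, a log2 ratio of -1.46. On an equal sum over all genes the log2 ratio of the family was 0.41. The row named Y_RNA had 0.0395 FPKM in the IMP1 library, the lowest value above 0 among all 144 rows, and was listed at 0 in the IgG library.

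**Figure D2:**
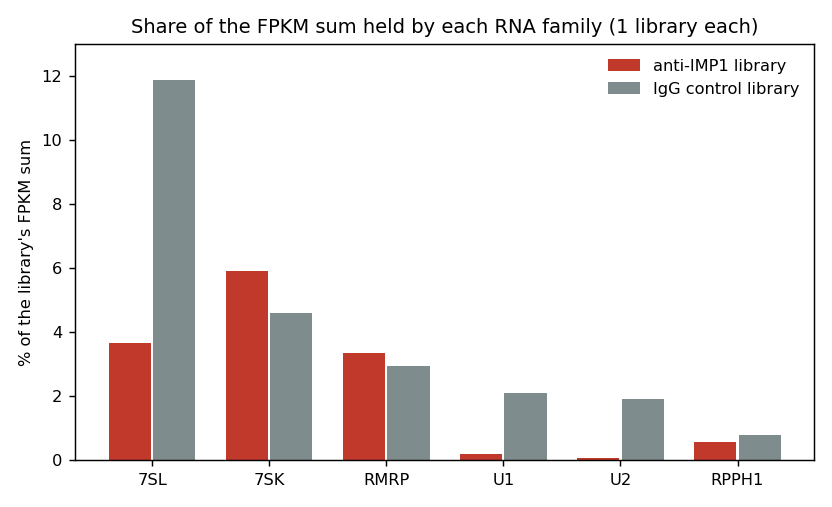
Percent of the FPKM sum of each library (vertical axis, bars from 0) held by the 6 largest families, with 1 bar for the IMP1 library and 1 for the IgG library and no error bars, since each is 1 library. 7SL held 3.67% and 11.9%, U1 0.182% and 2.10% and U2 0.0499% and 1.90%, whereas 7SK (5.91% and 4.58%) and RMRP (3.33% and 2.93%) were higher in the IMP1 library on this scale, though lower in FPKM.

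Ratios between families within a library do not depend on the scale. U1 stood to 7SK as 0.0308 with anti-IMP1 and as 0.458 with IgG, a 14.9-fold difference. For U2 against 7SK the ratios were 0.00845 and 0.414, a 49.1-fold difference, and for 7SL against 7SK they were 0.621 and 2.59, or 4.17-fold. RMRP against 7SK was nearly the same in both, at 0.564 and 0.640, and RPPH1 against 7SK was 0.0957 and 0.167, or 1.75-fold. Among these 5 families, the difference from 7SK was thus largest for U2, followed by U1, 7SL, RPPH1 and RMRP. The Y RNAs, at far lower FPKM, stood to 7SK as 0.000898 and 0.000869. U2 against U1 was 0.274 and 0.905, a 3.30-fold difference, and U1 against 7SL was 0.0496 and 0.177, or 3.56-fold. With 1 library of each kind, it is not known how far such ratios vary between precipitates.

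**Figure D3:**
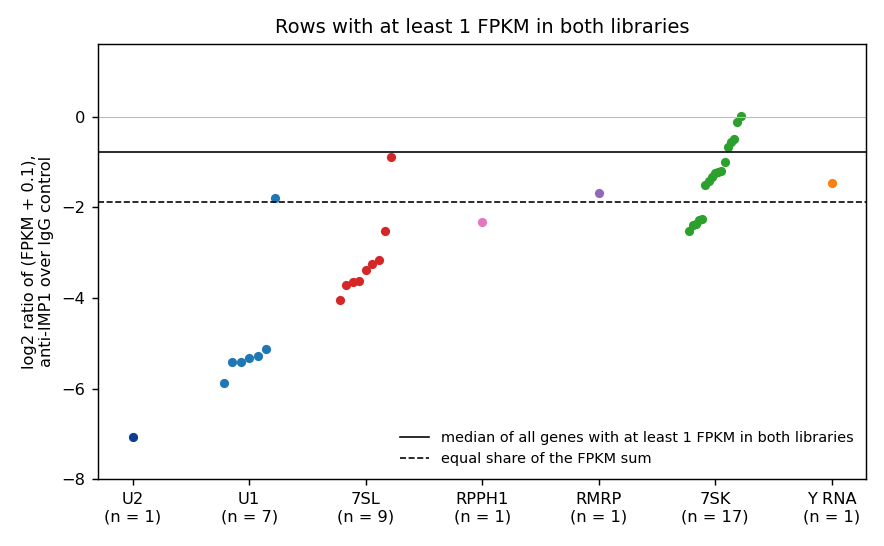
Log2 ratio of FPKM + 0.1, IMP1 over IgG (vertical axis), for the 37 rows with at least 1 FPKM in both libraries, 1 point per row, grouped by family; the solid line is the median of all 6909 genes at this minimum (-0.78) and the dashed line an equal share of the FPKM sum. The U2 row lies at -7.06, 6 of the 7 U1 rows between -5.88 and -5.12, and the 7SL rows from -4.05 to -0.90, while most 7SK rows, RMRP and RNY1 lie above the dashed line, that is, at a larger share of the IMP1 library, and below 0 in FPKM.

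The rows also differed in where they were above 0. Of the 144, 56 were above 0 in both libraries, 34 with IMP1 only and 54 with IgG only. Of the 110 rows above 0 with IgG, 54 (49.1%) were listed at 0 with IMP1, and over all genes this share was 10.4%. Of the 90 rows above 0 with IMP1, 34 were listed at 0 with IgG, and over all genes that share was 41.4%. The rows seen with one precipitate only were not alike in level. The 54 IgG-only rows had a median of 5.74 FPKM and a range of 1.18 to 492 FPKM, and 23 of them had at least 10 FPKM. The 34 IMP1-only rows had a median of 0.585 FPKM, and 28 of them lay under 1.18 FPKM, the lowest value above 0 of these RNAs in the IgG library.

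Only 6 IMP1-only rows reached the lowest IgG value. They were RNU6-8, RNU6-98P, U3, and the copies RN7SKP228 with 4.51 FPKM, RN7SL731P with 1.71 FPKM and RN7SKP130 with 1.26 FPKM. RN7SKP228 and RN7SKP130 are copies of the 7SK gene and RN7SL731P a copy of the 7SL gene, and these 3 were named after their values were seen. The lowest value above 0 depended on length in both libraries. Over all 72 rows with a locus of 263 to 348 bases, the length of 7SK and 7SL, it was 0.411 FPKM with anti-IMP1 and 1.18 FPKM with IgG. The lowest value above 0 at this length was thus lower in the IMP1 library, and the FPKM scales of the libraries differ, so whether the IMP1-only rows under 1.18 FPKM were absent from the IgG precipitate cannot be told.

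**Figure D4:**
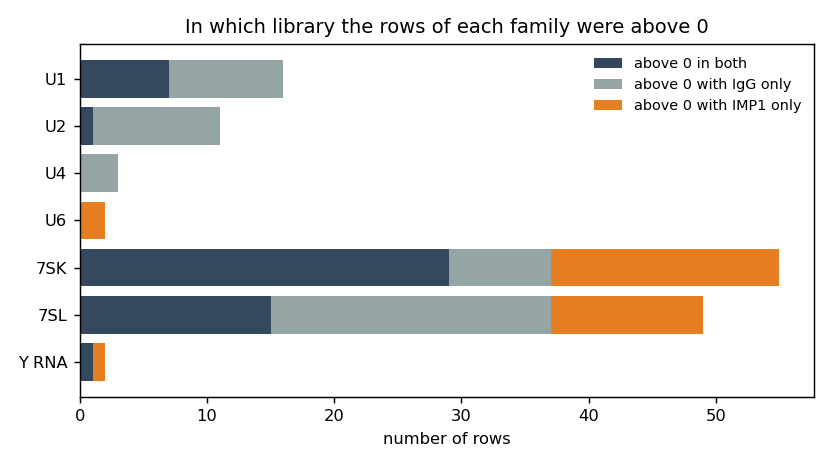
Number of rows (horizontal axis, from 0) above 0 in both libraries, with IgG only or with IMP1 only, for the 7 families with more than 1 row. U1, U2 and U4 had no row with IMP1 only and 9, 10 and 3 rows with IgG only. 7SK had 18 rows with IMP1 only, of 47 above 0 with IMP1, and 8 with IgG only, of 37 above 0 with IgG. Over all genes, 41.4% of those above 0 with IMP1 were listed at 0 with IgG. Of those above 0 with IgG, 10.4% were listed at 0 with IMP1.

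In FPKM, most rows of gene class and most of pseudogene class in RefSeq were lower in the IMP1 library. Of the 18 rows with a small RNA gene class in RefSeq, 17 were at least 2-fold lower in the IMP1 library and 1, RNU6-8, was higher, with a median log2 ratio of -5.22. Of the 114 rows of pseudogene class, 79 were lower and 27 higher, with a median of -2.96. Rows above 0 with IgG only, which are lower by their value of 0, numbered 4 in the gene class and 47 in the pseudogene class. The 12 rows with no entry had 6 lower and 5 higher, with a median of -0.68. Since reads of near-identical copies cannot be told apart, the classes are not separate measurements. Many rows carry the locus of a wider region that other genes share. The 77 rows with a locus of their own had 58 lower and 17 higher rows and a median of -3.65, and the 67 rows in a shared locus had 44 lower, 16 higher and a median of -2.52. Of the 106 other rows with a locus of up to 400 bases 34 were lower and 63 higher, with a median of 2.46, and 58 of them were above 0 with IMP1 only. At 1 FPKM or more in both libraries 23 of these rows were left, 10 lower and 5 higher, with a median of -0.22. The 34 small nucleolar and Cajal body RNAs, which guide the modification of ribosomal and spliceosomal RNAs, had 15 lower and 8 higher rows and a median of -0.47, and at that minimum 8 lower and 0 higher of 14, with a median of -1.31. These are descriptions of 1 pair of libraries, and no difference between the groups of rows was tested.

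The mRNAs of the proteins that build the same particles were about as often higher as lower in FPKM. In 12 lists 92 of 93 symbols had a row and RPP14 had 2. Of these 93 rows, 30 (32.3%) were higher by 2-fold or more with anti-IMP1 and 31 (33.3%) lower, with a median log2 ratio of -0.30. Over all genes, 39.9% were higher and 29.9% lower. At 1 FPKM or more in both libraries, 9 of 67 were higher and 28 lower, with a median of -0.63 beside -0.78 for all genes. Over all genes at this minimum, 11.5% were higher and 44.0% lower. On an equal sum over all genes 60 of the 93 were higher and 10 lower. The IgG library listed 18 of the 93 at 0, and for those the ratio depends on the pseudocount.

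The 7 mRNAs of the Sm ring, which surrounds U1, U2, U4 and U5, had 1 higher and 3 lower, with a median of -0.49. SNRPG had 42.2 FPKM with anti-IMP1 and 11.8 FPKM with IgG (log2 ratio 1.83) and SNRPB had 44.5 and 26.9 FPKM (0.73), while SNRPF (28.3 and 71.3 FPKM, -1.33) and SNRPE (31.7 and 74.5 FPKM, -1.23) were lower. Of the proteins particular to U1, SNRPA was higher (22.7 and 9.40 FPKM, 1.26), and SNRNP70 (8.47 and 8.60 FPKM) and SNRPC (31.0 and 33.8 FPKM) were within 2-fold. The U2 list, whose SF3A and SF3B proteins help U2 bind the branch point, had 3 higher and 3 lower of 11, with a median of 0.02. SF3A2 (9.44 and 2.97 FPKM, 1.64) and SNRPA1 (8.19 and 3.26 FPKM, 1.30) had its largest ratios, and SF3A1 (11.6 and 37.2 FPKM, -1.67) and SF3B2 (11.1 and 32.4 FPKM, -1.54) its smallest.

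The tri-snRNP list had 3 higher and 7 lower of 15, with a median of -0.78. PRPF8, the large scaffold at the heart of the spliceosome, had 2.58 FPKM with anti-IMP1 and 37.8 FPKM with IgG (-3.82), and SART1 had 3.04 and 30.5 FPKM (-3.28). TXNL4A (15.0 and 5.68 FPKM, 1.39) and NHP2L1 (18.9 and 9.60 FPKM, 0.97), small proteins of U5 and U4, had the largest ratios among those with at least 1 FPKM in each library, and EFTUD2 (5.75 FPKM) and PRPF31 (5.26 FPKM), named after their values were seen, were listed at 0 with IgG. In the LSm ring, which binds the end of U6, LSM6 was higher (3.98 and 1.39 FPKM, 1.45), LSM4 was lower (17.0 and 46.9 FPKM, -1.46), and LSM7 (-0.37) and LSM2 (-0.78) were within 2-fold. Among the minor spliceosome proteins 3 were higher and 3 lower of 8, and ZCRB1 had 11.2 and 139 FPKM (-3.62) and SNRNP48 1.08 and 3.89 FPKM (-1.76), with PDCD7 at 0.30 and ZMAT5 at -0.40. RNPC3, a protein that binds U12 and was named after its values were seen, had the lowest ratio of the list, with 0.289 and 22.3 FPKM (-5.85). Of the 4 mRNAs for U7 and histone mRNA ends, SLBP, the stem-loop binding protein, had 7.51 and 14.6 FPKM (-0.95) and LSM10 5.94 and 13.3 FPKM (-1.15). The transcription factors of snRNA genes had 2 higher and 4 lower of 7, with SNAPC5 at 3.36 and 33.1 FPKM (-3.26) and SNAPC3 at 2.62 and 8.15 FPKM (-1.60).

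For the 7SK particle, 3 of 7 mRNAs were higher and 1 lower. LARP7 and MEPCE, which hold and cap the 7SK RNA, had 1.11 and 4.14 FPKM with anti-IMP1 and 0 with IgG. HEXIM1, the inhibitor that 7SK carries, had 3.53 and 4.38 FPKM (-0.30), and the kinase CDK9 had 9.70 and 10.2 FPKM (-0.07). Of its cyclins, CCNT1 stood at 2.66 and 3.07 FPKM (-0.20) and CCNT2 at 3.03 and 28.4 FPKM (-3.18). The signal recognition particle and its receptor had 1 higher and 5 lower of 8, with a median of -1.24. SRP54, which binds the signal peptide, had 5.33 and 44.7 FPKM (-3.04) and SRP19, which folds 7SL, had 9.56 and 65.6 FPKM (-2.77), while the receptor subunits SRPRB (28.1 and 11.1 FPKM, 1.34) and SRPR (43.2 and 22.9 FPKM, 0.91) were higher in the IMP1 library, the second by less than 2-fold.

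The RNase P and RNase MRP proteins had 8 higher and 2 lower of 12 rows, with a median of 3.48, but 7 of the 12 were listed at 0 with IgG. Of the 5 above 0 in both libraries RPP21 was higher (21.0 and 2.02 FPKM, 3.31), POP7 was within 2-fold (6.27 and 5.21 FPKM, 0.26), and POP4 (15.2 and 65.1 FPKM, -2.09) and RPP14 (3.97 and 13.6 FPKM, -1.75) were lower. For the Ro, La and vault proteins 2 of 5 were higher and 1 lower. SSB, the La protein that binds the ends of new RNA polymerase III transcripts, had 7.28 and 42.2 FPKM (-2.52), TROVE2, the Ro protein that holds Y RNAs, had 4.48 and 6.23 FPKM (-0.47), and MVP, the major vault protein, had 0.221 and 0.110 FPKM.

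**Figure D5:**
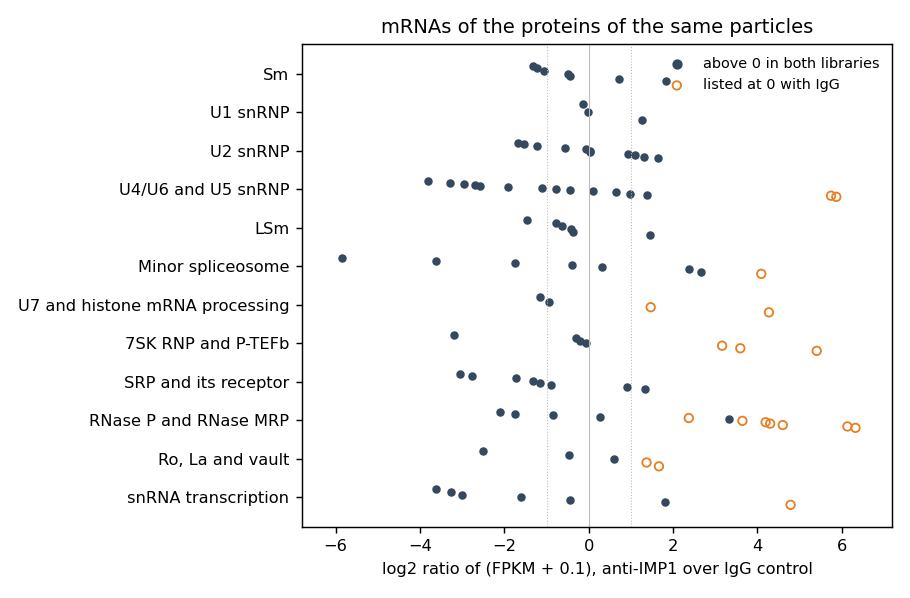
Log2 ratio of FPKM + 0.1, IMP1 over IgG (horizontal axis), of the 93 mRNA rows for proteins of the same particles, 1 point per row in 12 lists (vertical axis); filled points were above 0 in both libraries, open points were listed at 0 with IgG, and the dotted lines mark 2-fold. In FPKM, 30 points (32.3%) lie beyond 2-fold on the right, 18 of them open, and 31 (33.3%) on the left. Over all genes these shares were 39.9% and 29.9%. On an equal sum over all genes the counts of partner rows were 60 and 10.

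The markers of the cell line and of other cells bear on what the precipitates held. All 12 luminal breast markers were found and 11 were above 0 in both libraries, with TFF1 at 0.869 and 0 FPKM, and they summed to 1247 FPKM with anti-IMP1 and 587 FPKM with IgG. The 10 mesenchymal markers were all lower in the IMP1 library and summed to 2.64 and 233.5 FPKM, with DCN, LUM, ZEB2, COL1A2 and SPARC at 0 there. Of the blood markers, CD74 had 6.42 and 305 FPKM and HLA-DRA had 0 and 17.4 FPKM. The mesenchymal markers and CD74 thus differed in the same direction as U1, U2 and 7SL, and their part in the values of the small RNAs was not tested.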

How the data were processed

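RNA from 1 anti-IMP1 and 1 IgG precipitate of T47D cells was sequenced. The authors deposited FPKM values per gene, on build hg19 per the submitters' processing notes; the aligner and the FPKM software are not given in the sources used here. Their fold change, p-value, q-value and call columns, and 3 further tables of rows picked by those calls, were not used. A value of 1e-05 stands for 0 and was set back, and 1 was added to each locus start.

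The log2 ratio of FPKM + 0.1 was computed for 18781 rows, with calls at 2-fold. Total read depth is unknown. The rows, partner lists and markers were chosen with earlier results of these data known. Not every blood marker is reported here. Named were all members without a pseudogene symbol, the 10 highest per library, the 5 largest and 5 smallest ratios at 1 FPKM or more in both, per partner list the 2 largest and 2 smallest at that minimum, and 10 preset genes. RNU2-59P, RNU1-120P, RNU6-98P, RN7SKP71, RN7SKP80 and genes in shared loci were named after their values were seen. RefSeq classes (GRCh38.p14, no coordinates taken) matched 132 of 144 symbols. The counting was tested on simulated data. Tables were handled with pandas 2.3.3 and numpy 2.4.6 in Python 3.11.15, intervals came from scipy 1.17.1, and figures from matplotlib 3.10.9. Alternatives were other pseudocounts, filters, scalings, thresholds and member sets, 2 of them chosen after seeing the data.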

Additional observations from a re-analysis of the deposited data

How the results depend on the processing

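No paired analysis was possible because each condition had 1 library and the results come from no test, and for the same reason no replicate could be left out. Of 95 values recomputed under the alternatives, 68 kept their direction and their side of 2-fold, or for counts stayed within 1.5 times. The median log2 ratio of the 144 rows was between -5.12 and -1.31 in every setting run, and the sums of U1, U2, U12 and 7SL stayed more than 2-fold lower in the IMP1 library under each pseudocount, scaling and member set run for them. U12 is 1 row, at 0.372 FPKM with anti-IMP1. Its log2 ratio was -7.38 with a pseudocount of 1 and -9.22 with one of 0.01. The rows that were at least 2-fold higher, 33 as reported, numbered 7 with a pseudocount of 1, 0 among the 56 rows above 0 in both libraries and 2 among the 21 rows with a single symbol that marks no pseudogene. Lower rows, 102 as reported, numbered 48 and 18 in the last 2 settings, which hold fewer rows. In 2 alternatives chosen after seeing the data, 6 rows were higher at or above the lowest IgG value in a library, and 17 were higher and 58 lower among the 77 rows with a locus of their own. Of the calls, 24.4% were higher as reported and 34.8% on an equal sum over all genes. The scale shifts all log2 ratios, by 0.79 for the median gene, 1.51 for an equal sum without mitochondrially encoded genes and 1.88 for an equal sum over all genes, and this moved the families near equality. In that order, 7SK went from -1.51 to -0.71, 0.0052 and 0.37, RMRP from -1.69 to -0.89, -0.18 and 0.19, and Y RNA from -1.46 to -0.67, 0.052 and 0.41, while RPPH1 went from -2.31 to -0.80 and -0.44 on the equal sums. Of the 93 partner rows, 30 higher and 31 lower became 17 lower on the median gene, 54 and 14 on the equal sum without mitochondrially encoded genes, 60 and 10 on the equal sum over all genes and 18 and 15 at 4-fold, and 12 were higher among those above 0 in both libraries. Depth limits the low rows, where a value of 0 says only that the row was listed at 0.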
